A study of Oryza sativa with 4 samples.

Results

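Heat shock proteins are chaperones that keep other proteins folded, and heat shock factors (HSFs) are the transcription factors that switch their genes on. A list of 51 rice genes of this system was described here: 7 of the HSP70 class, 3 of the HSP90 class, 3 of the HSP101 and ClpB class, 15 small heat shock proteins and 23 HSFs. The members were given by identifier and class, and 46 of them were found among the 20563 genes that at least 1 of the deposited tables lists. Of these, 35 are listed for 93-11 and 38 for Nipponbare, and 27 members are in both tables, where 8576 genes are shared in all.

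In plants, HSFs of class A bind heat shock elements in promoters and activate transcription, while HSFs of class B lack the activation domain of class A and often act as repressors or co-regulators. Small heat shock proteins hold unfolding proteins in solution, HSP101 and the related ClpB proteins pull aggregated proteins apart, and HSP70 and HSP90 refold and mature client proteins. Some HSP70 and HSP90 genes are constitutive and others are induced by heat or by other stress, whereas most small heat shock protein genes and HSP101 are low in unstressed vegetative tissue.

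The samples are 2 libraries of the indica cultivar 93-11 and 2 of the japonica cultivar Nipponbare. Seedlings of both had grown for 3 days in nutrient solution at 28 °C. Tips of 5 mm from 800 crown roots were digested with wall-degrading enzymes at 28 °C, for 30 minutes at rest and 2.5 hours with shaking, and RNA was taken from the released protoplasts, which are cells without walls. Every library therefore carries this digestion, and an undigested root was not analysed here. Separate preparations for the libraries of 1 cultivar are not stated in the labels. The p-values therefore cover no more than the spread among these 4 libraries, possibly a technical one, and cultivar and preparation cannot be told apart.

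Levels are RPM, read numbers scaled to the library total without regard to gene length, so they are compared between cultivars and not between genes. The 4 library totals, read off from the smallest values, ran from 21504426 to 21504715 reads, and 1 read was worth 0.0465 RPM. The listed genes held 42.3% and 43.5% of the totals in 93-11 and 55.6% and 55.7% in Nipponbare. A difference is the 93-11 mean minus the Nipponbare mean of log2(RPM + 1), a scale on which changes of low genes come out too small. The test was limma over the 7269 shared genes whose mean reached 1 RPM. Nearly all genes were called at an adjusted p of 0.05: 59% were higher in 93-11 and 37.9% higher in Nipponbare. The differences of all genes formed a low between 2 humps, with 192 genes between 0 and 0.5 against 455 between -1.5 and -1 and 800 between 2 and 2.5, and their median was 1.44. The sources used here do not say why a gene is listed in a table. In bulk RNA, fewer cells of a type and less RNA per cell cannot be told apart.

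Most heat shock members in both tables were higher in Nipponbare. With no filter on low values, 23 of the 27 shared members were called higher in Nipponbare and 4 higher in 93-11, where the same fit called 34.4% of all 8576 shared genes higher in Nipponbare and 61.5% higher in 93-11. The libraries of the cultivars did not overlap for any of the 27. The same count was not made over all shared genes, nearly all of which were called, so it does not set the members apart. Their median difference was -2.01, and that of all shared genes was 1.12. With the filter, 24 members were tested, of which 21 were called higher in Nipponbare and 3 higher in 93-11. A member with few reads in 1 cultivar passes the filter only through the other, so this count is a description. A difference of a power of 10 needs care, because restored values could be 10 times too low. For 14 of the 23 members higher in Nipponbare at least 1 library of 93-11 was below 1 RPM, where the decimal point was intact, and this error cannot have made the 93-11 level too low. With LOC_Os10g28340 and LOC_Os03g16860, 16 of the 23 would keep their direction and stay free of overlap if both 93-11 values were 10 times higher. For the other 7, LOC_Os05g44340, LOC_Os03g15960, LOC_Os03g06630, LOC_Os03g58160, LOC_Os02g32590, LOC_Os05g45410 and LOC_Os03g12370, the direction rests on the restoration. Of the 4 members higher in 93-11, it rests on the restoration for LOC_Os03g02260 and LOC_Os01g54550.

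**Figure D1:**
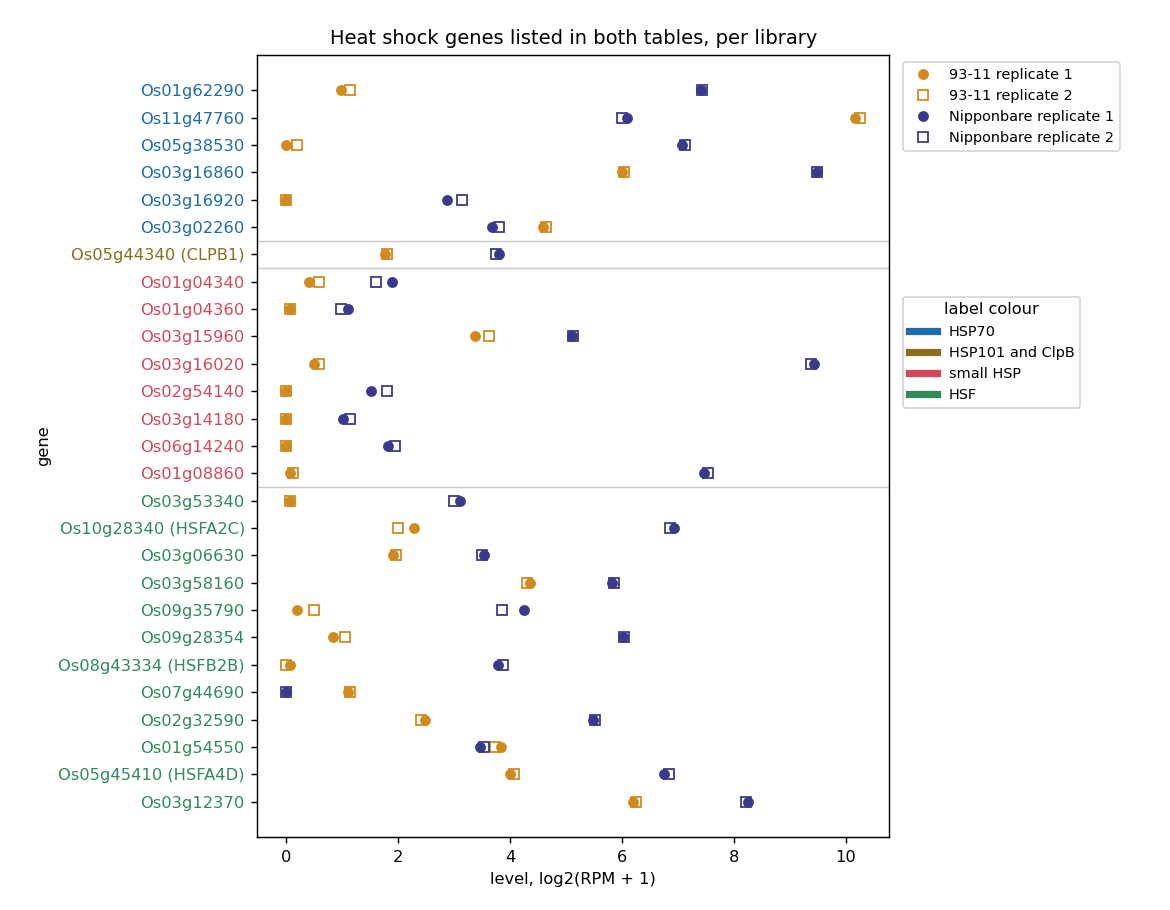
Level of the 27 shared heat shock genes in each library, as log2(RPM + 1) on the horizontal axis, with 1 row per gene and replicate 1 filled and replicate 2 open. The Nipponbare symbols lie to the right of the 93-11 symbols in 23 rows and to the left in 4 rows.

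The HSFs, which stand at the head of the system, were mostly higher in Nipponbare. Of 23 members, 12 were in both tables. With no filter 10 of these 12 were called higher in Nipponbare and 2 higher in 93-11. The same fit called 34.4% of all shared genes higher in Nipponbare and 61.5% higher in 93-11. Summed over the 12 genes, the HSF level was 134 and 135 RPM in the 93-11 libraries and 751 and 747 RPM in the Nipponbare libraries, 5.59-fold higher in Nipponbare.

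LOC_Os10g28340, matched to HSFA2C, is an HSF of the A2 type, which in plants accumulates under heat and prolongs the response. It was at 3.86 and 2.98 RPM in 93-11 and at 119.9 and 115 RPM in Nipponbare. Both Nipponbare libraries were far above both 93-11 libraries, 34.4-fold on the means, with a log2 difference of -4.75 (SE 0.111, limma adjusted p = 1.96e-06). Another HSF, LOC_Os09g28354, was at 0.791 and 1.07 RPM in 93-11 and at 64.1 and 64.8 RPM in Nipponbare. With 17 and 23 reads in the 93-11 libraries, it was 69.3-fold higher in Nipponbare (log2 difference with no filter -5.09, SE 0.0921). It passed the filter only through Nipponbare. For both factors the libraries of each cultivar lay close together beside the gap between the cultivars.

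Several HSFs had almost no reads in 93-11. LOC_Os08g43334, matched to the class B factor HSFB2B, had 1 and 0 reads in the 93-11 libraries and 273 and 294 reads in the Nipponbare libraries. That is 0.0465 and 0 RPM against 12.7 and 13.7 RPM, a ratio of 567 whose exact binomial interval of 95% ran from 101 to 22434. LOC_Os03g53340 had 1 read in each 93-11 library and was at 7.63 and 6.98 RPM in Nipponbare, a ratio of 157 with an interval of 43.1 to 1302. These intervals cover counting error only. LOC_Os09g35790 was at 0.140 and 0.419 RPM in 93-11 and at 17.9 and 13.4 RPM in Nipponbare, 56.1-fold higher. Its libraries scattered more than those of the other HSFs named here, and its SE of 0.183 was the largest among the 24 tested members.

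Other HSFs had reads in every library and differed less, some of them at low levels in 93-11. LOC_Os03g12370 was at 72.5 and 74.8 RPM in 93-11 and at 301 and 297 RPM in Nipponbare, 4.06-fold higher (log2 difference -2.01, SE 0.0371, limma adjusted p = 1.32e-06). LOC_Os05g45410, matched to the class A factor HSFA4D, was at 14.9 and 15.9 RPM against 107 and 113 RPM, 7.18-fold higher in Nipponbare. LOC_Os03g58160 was 2.94-fold higher, at 19.5 and 18.7 RPM against 55.6 and 56.8 RPM, and LOC_Os03g06630 was 3.70-fold higher, at 2.74 and 2.88 RPM against 10.6 and 10.3 RPM. In each of these genes the lower Nipponbare library was above the higher 93-11 library. LOC_Os02g32590 was at 4.56 and 4.28 RPM in 93-11 and at 43.7 and 44.8 RPM in Nipponbare. Its ratio of 10.02 is so close to 10 that a restoration error in 93-11 would leave the cultivars level. A restoration error in 93-11 would reverse the other 4 genes of this paragraph. When each library was restored by itself, LOC_Os03g12370 lost its call, with a difference of -0.37 (limma adjusted p = 0.820). LOC_Os02g32590, LOC_Os03g58160 and LOC_Os05g45410 lost theirs as well, with limma adjusted p-values of 0.345, 0.0997 and 0.271, because at least 1 library is then 10 times lower. In the other alternatives that changed 1 setting, all 4 of these genes kept their calls, with adjusted p-values of at most 0.00305.

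A pair of HSFs was called higher in 93-11. LOC_Os07g44690 was at 1.16 and 1.21 RPM in 93-11, while neither Nipponbare library had a read of it. Against the limit that 0 reads allow, 3 reads or 0.140 RPM in a library, it was at least 8.50-fold higher in 93-11, and it was called with no filter (log2 difference 1.13, limma adjusted p = 4.03e-05). LOC_Os01g54550 was at 13.3 and 12.3 RPM in 93-11 and at 10.00 and 10.6 RPM in Nipponbare. This was the smallest difference of the tested members, 0.29 on the log2 scale (SE 0.0765, limma adjusted p = 0.0167). Its direction turned under both other scalings, to -0.21 with median-ratio scaling, where it was not called, and to -0.54 with quantile normalization. With the latter it was called higher in Nipponbare (limma adjusted p = 0.00166). The call toward 93-11 was also lost without either 93-11 library or without Nipponbare replicate 1, with log2 differences of 0.23 to 0.34.

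The small heat shock proteins held the largest difference of the list. All 8 small heat shock protein genes in both tables were called higher in Nipponbare with no filter. The same fit called 34.4% of all shared genes higher in Nipponbare and 61.5% higher in 93-11. The filter was passed by 6 of the 8, for which reads in Nipponbare alone can suffice. In 93-11 7 of the 8 were below 1 RPM in both libraries, and 3 of these had 0 reads. Such genes were not counted over all shared genes. Summed over the 8 genes the level was 10.2 and 12.6 RPM in 93-11 and 906 and 891 RPM in Nipponbare, 78.8-fold higher in Nipponbare, and 2 genes, LOC_Os03g16020 and LOC_Os01g08860, supplied most of the Nipponbare reads.

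LOC_Os03g16020 was at 0.419 and 0.512 RPM in 93-11, which is 9 and 11 reads, and at 688 and 664 RPM in Nipponbare, which is 14787 and 14269 reads. It was 1453-fold higher in Nipponbare. With no filter its log2 difference was -8.85 (SE 0.0549, limma adjusted p = 8.32e-06), and it passed the filter only through Nipponbare. LOC_Os01g08860 had 1 and 2 reads in the 93-11 libraries and was at 175 and 184 RPM in Nipponbare. The ratio was 2574, with an interval of 880 to 12484. Both genes were thus plentiful in both Nipponbare libraries and near the limit of detection in both 93-11 libraries.

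The other 6 small heat shock protein genes in both tables had fewer reads. LOC_Os03g15960 was the only one above 1 RPM in 93-11, at 9.39 and 11.4 RPM, and it was at 33.5 and 33.7 RPM in Nipponbare, 3.23-fold higher (log2 difference -1.61, SE 0.100), a direction that rests on the restoration. LOC_Os01g04340 was at 0.326 and 0.512 RPM against 2.70 and 2.05 RPM, and LOC_Os01g04360 had 1 read in each 93-11 library against 1.16 and 0.977 RPM. The genes with 0 reads in 93-11 were LOC_Os06g14240 with 2.51 and 2.84 RPM in Nipponbare, LOC_Os02g54140 with 1.86 and 2.46 RPM and LOC_Os03g14180 with 1.02 and 1.21 RPM. They were at least 19.2-fold, 15.5-fold and 8.00-fold higher in Nipponbare. For these low genes the direction holds in every library, while the size of the fold rests on few reads.

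Small heat shock protein genes lie in 2 runs of neighbouring identifiers, and close relatives in a run can share reads. The sources used here do not tell how reads that match several genes were counted, and the split within a run is uncertain. In the run LOC_Os03g15960 to LOC_Os03g16040, LOC_Os03g16030 was listed for Nipponbare only, at 271 and 268 RPM. LOC_Os03g16040 was listed for 93-11 only, at 49.9 and 58.9 RPM. Over all listed members of this run the sum was 59.8 and 70.8 RPM in 93-11 and 992 and 966 RPM in Nipponbare. Each table lists 3 of its 4 genes, and not the same 3, so these sums do not compare the run as a whole. In the run LOC_Os01g04340 to LOC_Os01g04380, LOC_Os01g04370 was listed for 93-11 only with 0 reads and LOC_Os01g04380 for Nipponbare only at 3.77 and 3.53 RPM.

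**Figure D2:**
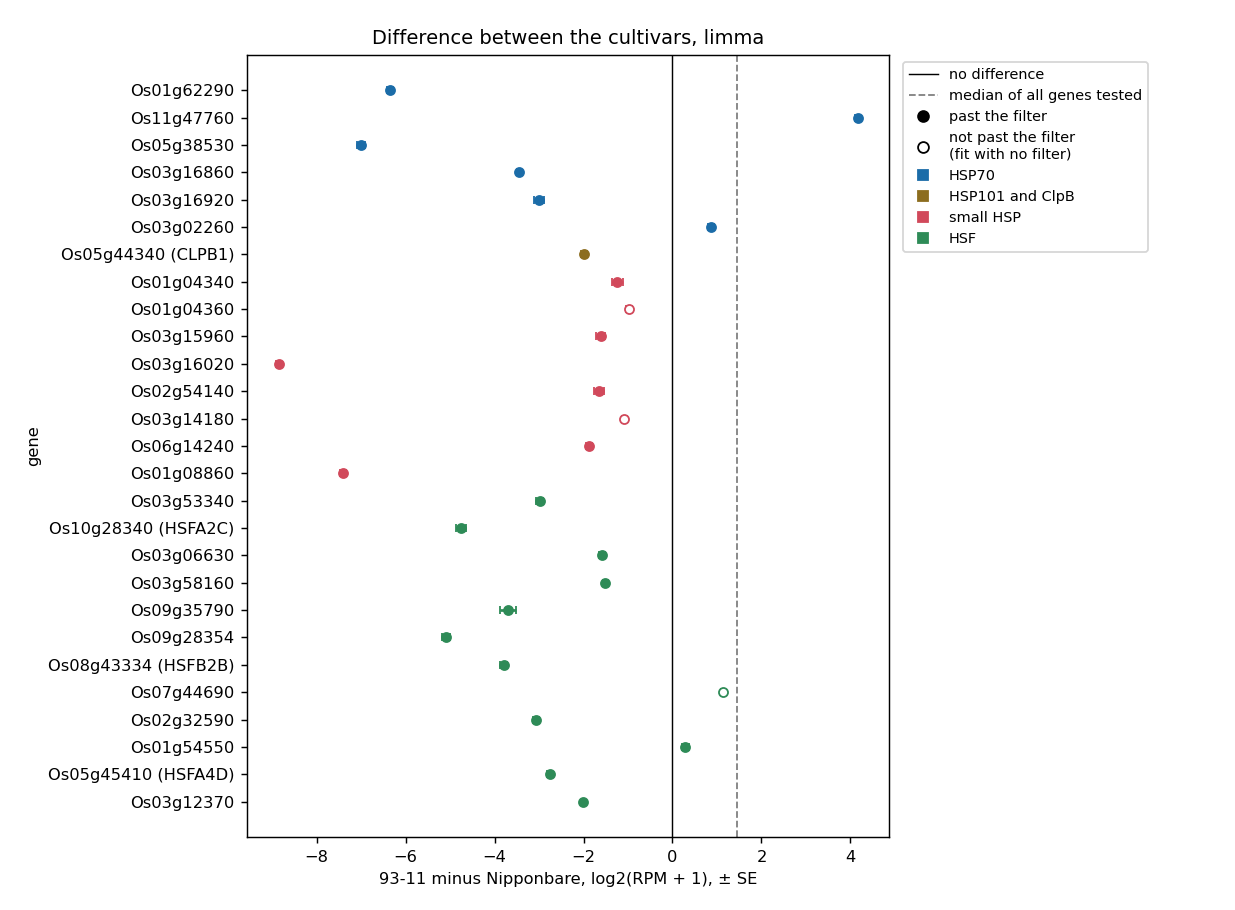
Difference between the cultivars for the 27 shared genes, 93-11 minus Nipponbare on the log2(RPM + 1) scale with its SE from limma, for 4 libraries. Open symbols are the 3 genes that did not pass the filter, and the dashed line is the median of all genes tested, 1.44. Most symbols lie left of 0, with LOC_Os03g16020 at -8.85, and LOC_Os11g47760 lies far to the right at 4.16.

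HSP101 and its ClpB relatives could be compared at 1 gene. LOC_Os05g44340, matched to HSP101 (CLPB1), the cytosolic disaggregase needed for heat tolerance in plants, was at 2.42 and 2.46 RPM in 93-11 and at 13.0 and 12.4 RPM in Nipponbare. It was 5.20-fold higher in Nipponbare (log2 difference -1.99, SE 0.0752, limma adjusted p = 7.67e-06), with the libraries of each cultivar close together. A restoration error in 93-11 would reverse this difference. LOC_Os03g31300, matched to the chloroplast form CLPB-C, was listed for 93-11 only at 18.5 and 19.0 RPM. LOC_Os02g08490, matched to the mitochondrial form CLPB-M, was listed for Nipponbare only at 28.0 and 24.1 RPM. These 2 have no counterpart and no comparison.

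The HSP70 class split by member in opposite directions. Of 6 genes in both tables, all of which passed the filter, 4 were called higher in Nipponbare and 2 higher in 93-11. Of all genes tested, 37.9% were called higher in Nipponbare and 59% higher in 93-11. LOC_Os03g16920 and LOC_Os05g38530 passed the filter only through Nipponbare. The summed level of the 6 genes hid this, at 1229 and 1313 RPM in 93-11 and 1099 and 1106 RPM in Nipponbare. Without LOC_Os11g47760 the sums were 86.9 and 89.9 RPM in 93-11 and 1032 and 1043 RPM in Nipponbare, 11.7-fold higher in Nipponbare.

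LOC_Os11g47760 was at 1142 and 1223 RPM in 93-11 and at 67.1 and 63.0 RPM in Nipponbare. It supplied nearly all 93-11 reads of the HSP70 genes in both tables. It was 18.2-fold higher in 93-11 (log2 difference 4.16, SE 0.0529, limma adjusted p = 8.11e-07). LOC_Os03g16860 showed the opposite, at 63.0 and 64.7 RPM in 93-11 and 712 and 713 RPM in Nipponbare. It was 11.2-fold higher in Nipponbare (log2 difference -3.46, SE 0.0334), a ratio near 10 to which the caution on restoration applies. Among the HSP70 genes in both tables, most reads thus came from LOC_Os11g47760 in 93-11 and from LOC_Os03g16860 in Nipponbare. Differences of this size were not rare among all genes tested. Toward 93-11, 433 genes (5.96%) differed at least as far as LOC_Os11g47760. Toward Nipponbare, 557 genes (7.66%) differed at least as far as LOC_Os03g16860.

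The remaining HSP70 genes higher in Nipponbare were nearly silent in 93-11. LOC_Os01g62290 was at 0.977 and 1.21 RPM in 93-11 and at 169 and 171 RPM in Nipponbare, 155-fold higher (log2 difference -6.35, SE 0.0770). LOC_Os05g38530 had 0 and 3 reads in the 93-11 libraries and was at 133 and 139 RPM in Nipponbare, a ratio of 1953 with an interval of 668 to 9473. LOC_Os03g16920 had 0 reads in 93-11 and was at 6.32 and 7.81 RPM in Nipponbare, at least 50.7-fold higher. In each of these 3 genes both Nipponbare libraries were far above both 93-11 libraries. LOC_Os03g02260 went the other way, at 22.9 and 23.9 RPM in 93-11 and 11.9 and 12.9 RPM in Nipponbare, 1.89-fold higher in 93-11. Its log2 difference of 0.87 was below the median of all genes and fell to 0.24 under quantile normalization. A restoration error in Nipponbare would reverse it. LOC_Os03g60620 was listed for Nipponbare only, at 26.8 and 30.4 RPM. Genes of this class are alike in coding sequence, so reads may be split between them and single values are uncertain.

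**Figure D3:**
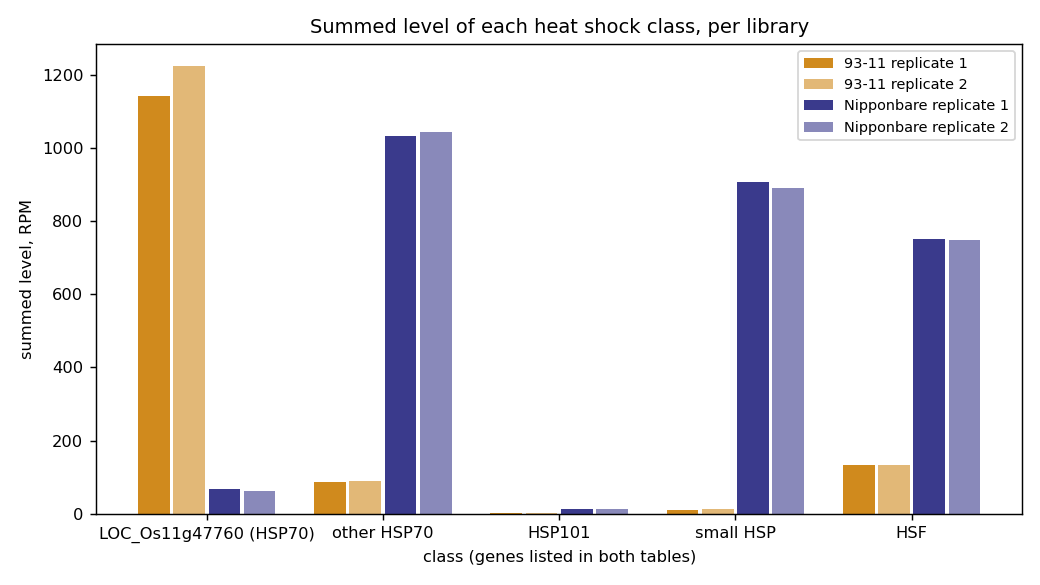
Summed level in RPM over the genes in both tables, per library, for LOC_Os11g47760, the other 5 HSP70 genes, HSP101, 8 small heat shock protein genes and 12 HSF genes. The 93-11 bars exceed the Nipponbare bars for LOC_Os11g47760, and the Nipponbare bars are higher for each of the other groups.

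None of the 3 HSP90 genes could be compared, because no HSP90 member is in both tables. In 93-11 LOC_Os09g30412 was at 905 and 951 RPM, and LOC_Os08g39140, matched to HSP81-1, was at 115 and 124 RPM. In Nipponbare LOC_Os04g01740 was listed at 6.05 and 5.91 RPM. HSP90 is a chaperone of kinases and receptors and binds HSFs in resting cells, and what its genes did between the cultivars is not shown by these tables.

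Among the other members in 1 table only, the HSFs of the Nipponbare table covered a wide range. LOC_Os02g29340 was at 35.7 and 32.5 RPM and LOC_Os04g48030, matched to the class B factor HSFB2A, at 8.88 and 8.23 RPM. LOC_Os01g39020, LOC_Os02g13800 and LOC_Os06g35960 lay between 1.21 and 4.09 RPM, and LOC_Os09g28200 had 0 reads. The 93-11 table alone lists the HSF genes LOC_Os01g43590, at 0.465 and 0.279 RPM, and LOC_Os07g08140, at 0.465 and 0.419 RPM. It also lists LOC_Os04g36750, matched to the small heat shock protein HSP23.2, with 2 and 0 reads. The 5 members not found in the tables were the small heat shock protein genes LOC_Os02g52150 and LOC_Os06g11610 and the HSF genes LOC_Os03g63750, LOC_Os06g36930 and LOC_Os01g53220, and they were not analysed here.

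**Figure D4:**
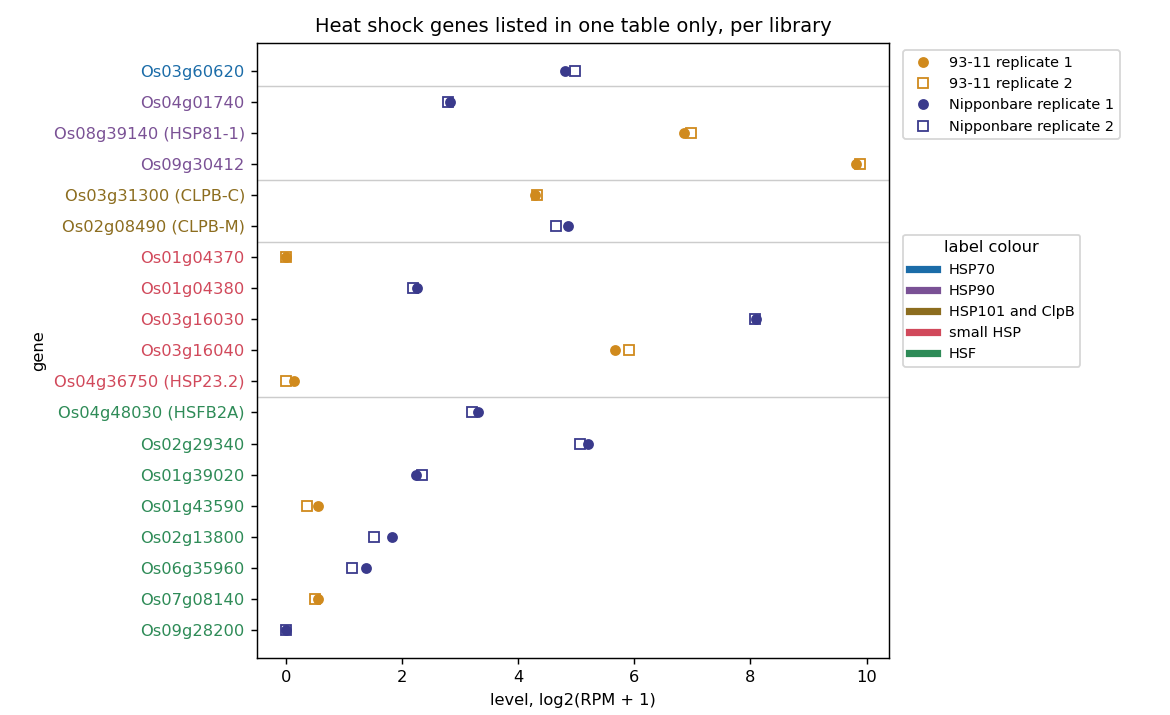
Level of the 19 heat shock genes that only 1 table lists, as log2(RPM + 1) in each of the 2 libraries of that cultivar. The symbols farthest from 0 are those of the HSP90 gene LOC_Os09g30412 in 93-11 (905 and 951 RPM) and of the small heat shock protein gene LOC_Os03g16030 in Nipponbare (271 and 268 RPM).

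Replicates of a cultivar were close for the abundant members. Among members with at least 1000 reads over both libraries, the 2 libraries differed by a median of 5.07% for 7 genes in 93-11 and 3.63% for 17 genes in Nipponbare, against 5.28% and 2.60% for all genes of the same depth. The widest gaps were 18.0% for LOC_Os03g16040 in 93-11 and 16.2% for LOC_Os02g08490 in Nipponbare. All 7 genes of 93-11 were higher in replicate 2, where 1922 of 3236 genes of that depth were. The agreement is partly built in, since restoration took the closest pair of values.

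Other chaperones were described beside the heat shock members. A list of 22 genes for chaperones of organelles and co-chaperones, written from knowledge of the rice literature and not checked against an annotation, had 14 members in both tables, all of which were tested. Of these, 10 were called higher in 93-11 and 4 higher in Nipponbare, where 59% of all genes tested were higher in 93-11 and 37.9% higher in Nipponbare. Their median difference was 2.15, and that of all genes was 1.44. For 4 of the 10 and 2 of the 4 the direction would survive a restoration error. All 4 genes given as HSP90 of organelles and all 5 tested genes given as chaperonin 60, the barrel-shaped chaperone of mitochondria and plastids, were higher in 93-11. Of the latter, LOC_Os10g32550 alone differed by enough, 23.9-fold, to keep its direction under a restoration error, and of the former all but LOC_Os06g50300 did. Summed over its 5 genes, chaperonin 60 was at 627 and 627 RPM in 93-11 and 53.0 and 53.9 RPM in Nipponbare, 11.7-fold higher in 93-11. The HSP90 genes of organelles summed to 1104 and 1087 RPM against 443 and 452 RPM, 2.45-fold higher in 93-11. The 2 tested genes given as HSP70 of organelles split, with LOC_Os02g53420 3.79-fold higher in 93-11 and LOC_Os03g02390 9.47-fold higher in Nipponbare, a ratio near 10.

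All 3 tested genes given as co-chaperones and regulators in that list were called higher in Nipponbare, as were 37.9% of all genes tested. LOC_Os06g39240 and LOC_Os09g20830 passed the filter only through Nipponbare. LOC_Os06g39240 had 0 and 1 reads in the 93-11 libraries and was at 21.3 RPM in both Nipponbare libraries. LOC_Os09g20830 was at 0.419 and 0.512 RPM in 93-11 and 8.00 and 7.72 RPM in Nipponbare, 16.9-fold higher. LOC_Os01g43540 was at 134 and 136 RPM against 314 and 318 RPM, 2.35-fold higher, with a direction that rests on the restoration. LOC_Os02g43020, of the same group, was listed for Nipponbare only, at 30.8 and 31.2 RPM.

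**Figure D5:**
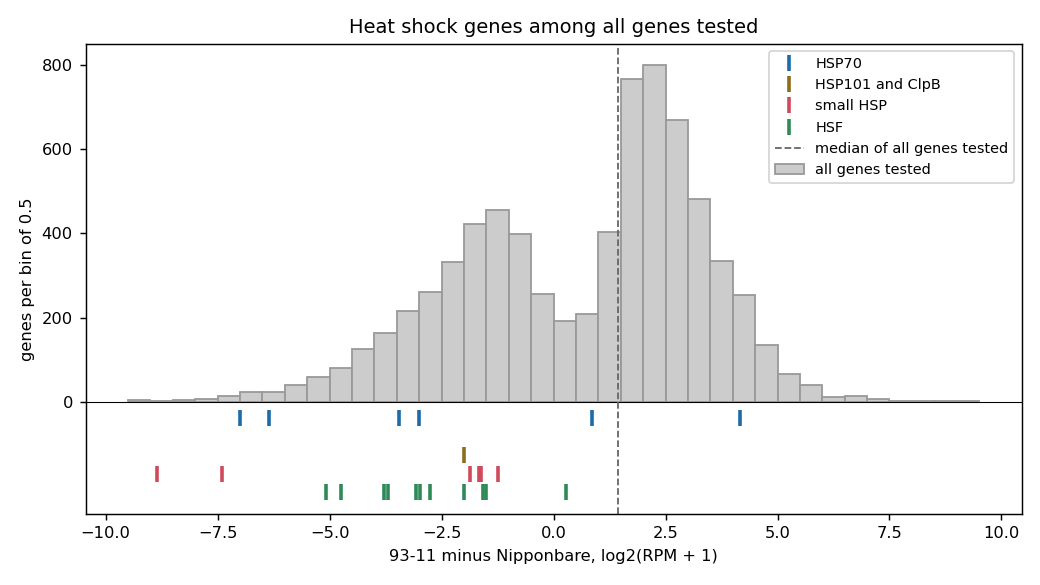
Differences of all 7269 genes tested, 93-11 minus Nipponbare on the log2(RPM + 1) scale, as genes per bin of 0.5, with a tick below for each of the 24 tested heat shock genes by class. The bars show 2 humps with a low near 0, and 21 ticks lie left of 0 while the dashed median of all genes is at 1.44.

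Marker lists for root and for green tissue were likewise written from knowledge of the literature and not checked against an annotation. All 7 root markers were called higher in 93-11, as were 59% of all genes tested, with log2 differences of 1.18 to 6.61 beside a median of 1.44 for all genes, and their summed level was 7532 and 8086 RPM in 93-11 and 3368 and 3337 RPM in Nipponbare. LOC_Os02g44310, with the difference of 1.18, supplied most of these reads, and its direction rests on the restoration, while the other 6 markers lay between 0 and 1.81 RPM in the Nipponbare libraries, with LOC_Os03g01700 at 0 in both. Of 4 markers of green tissue, 2 were found. LOC_Os09g17740 was at 5.21 and 5.53 RPM in 93-11 with 0 reads in Nipponbare, and LOC_Os12g19470 was listed for Nipponbare only, at 0.698 and 0.837 RPM. The part of these markers in the heat shock differences was not tested.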

How the data were processed

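Poly(A) RNA of root tip protoplasts was sequenced from 2 cultivars with 2 libraries each. HISAT2 2.0.4 and HTSeq 0.11.2 are listed, without their roles, in the submitters' processing notes. Genome build and annotation: not given in the sources used here. Per cultivar, the authors deposited 1 table of RPM values, named so by its file, in which values of 1 RPM or more had lost their decimal points.

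Values were restored as whole numbers of reads (tolerance 1e-06 of a read plus 1e-12 of the value), since each library's smallest value gives the worth of 1 read. The closest pair of candidates from both libraries was taken and, of equally close pairs, the lowest. Pairs more than 0.4 apart in log10 were left out, 3 genes in 93-11 and 1 in Nipponbare, except at low read numbers, where such pairs were kept. Where both read numbers end in 0 and both true levels are 10 RPM or more, the restored level is 10 times too low.

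Shared genes whose mean reached 1 RPM were compared on log2(RPM + 1) by limma 3.58.1 (trended variance, R 4.3.3), with Benjamini-Hochberg adjustment over all genes tested at 0.05. The fit and the restoration were tested on simulated data. Intervals are exact binomial (scipy 1.17.1). Members and lists were chosen with earlier results of these data known. Every member is named, with values per library for those at 10 RPM or more. Identifiers are those of the tables. The RefSeq table of assembly ASM3414082v1 holds 0 of them, so a RefSeq name was given to 9 members only where RefSeq has 1 gene of the class, and the list 1 member, on the chromosome that the identifier names. This pairing was not checked further. Alternatives were another pseudocount, other filters, other scalings, no trend, a replicate block, each library left out and, chosen after seeing the data, restoration of each library by itself. No sequence was used.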

Additional observations from a re-analysis of the deposited data

How the results depend on the processing

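Of the 24 tested members, 19 kept their direction and their call under every one of the 12 alternatives that could test them. The number called higher in Nipponbare ran from 16 (mean of at least 5 RPM, 19 members tested) to 23 (no filter, 27 tested), and the number called higher in 93-11 from 2 to 4. Of all genes, 2140 of 4911 were called higher in Nipponbare with a mean of at least 5 RPM. With no filter, 2951 of 8576 were called higher in Nipponbare and 5278 higher in 93-11. Leaving out 1 library gave 18 to 21 and 2 to 3. LOC_Os01g54550 reversed to -0.21 with median-ratio scaling and to -0.54 with quantile normalization, which called it higher in Nipponbare. The cause was not tested. With a mean of at least 5 RPM, 2671 of all genes were called higher in 93-11 against 4290, with 4911 genes tested in place of 7269. Restoring each library by itself left 17 members called higher in Nipponbare and 3 higher in 93-11. Calls over all 7269 genes tested fell as well, to 2232 from 2757 higher in Nipponbare and to 3727 from 4290 higher in 93-11. LOC_Os02g32590, LOC_Os03g12370, LOC_Os03g58160 and LOC_Os05g45410 lost their calls there, because at least 1 of their libraries is then 10 times lower. The median of all genes was 1.44, moving to 1.03 with median-ratio scaling and to 0.59 with quantile normalization. That of the tested members was -2.88, -3.24 and -2.96, and some of these members passed the filter only through Nipponbare. With no filter the median was -2.01 for the members and 1.12 for all shared genes.

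The labels number the libraries 1 and 2 in both cultivars but give no shared source. Deviations of same-numbered libraries were uncorrelated across genes (r = 0.019). With the replicate block the members called were 21 higher in Nipponbare and 3 in 93-11, and of all genes 2776 and 4294, with 0 member calls changed. Genes with few reads limit the size of a fold more than its direction.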
